A study of Arabidopsis thaliana with 16 samples.

Results

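A set of MADS-box genes that specify floral organs and floral meristems in Arabidopsis thaliana were followed through a shift to warmth. They were chosen by gene identifier: APETALA1 (AP1), CAULIFLOWER (CAL), FRUITFULL (FUL), APETALA3 (AP3), PISTILLATA (PI), AGAMOUS (AG) and SEPALLATA1 to SEPALLATA4 (SEP1, SEP2, SEP3 and SEP4). They make up 10 of the 25444 genes listed in the deposited tables, by a rule that uses no measured value, though earlier results of these data were known when they were chosen. RNA was sequenced from inflorescences that still carried juvenile leaves, taken from Col-0 wild type (WT) plants and from plants with zed1-D, a mutant form of ZED1 that acts dominantly and whose product is a pseudokinase. All plants were grown at 18 °C with 16 h of light until the primary stem had bolted and were then moved to 28 °C. Tissue was collected after 0, 3, 12 and 48 h, which gives 4 zed1-D groups and 4 WT groups with 2 libraries each, 16 in all. The labels do not say whether the 2 libraries of a group came from separate plants, so the p-values reflect library-to-library spread alone, which may be technical. No line that restores ZED1 and no library kept at 18 °C beyond 0 h was analysed here, so time at 28 °C, time of day and development since bolting cannot be told apart.

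MADS-box proteins bind DNA as dimers and assemble into larger complexes, and the combination present in a whorl of the flower sets which organ forms there. In this scheme AP1 belongs to class A and marks the floral meristem, sepals and petals, CAL is its closest relative and acts with it in the floral meristem, and FUL acts in the inflorescence meristem and later in the fruit wall. AP3 and PI are the class B genes for petals and stamens, whose products work as a pair. AG is the class C gene for stamens and carpels and ends the growth of the floral meristem. The SEPALLATA genes are class E and supply the partners that the other classes need.

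The 300 bases upstream of the annotated gene starts are shown first for AP1, CAL and FUL, close paralogs whose levels are compared below. Those of SEP1 and SEP2, on which the clearest differences in level rest, follow. Capitals in the first 3 mark exact runs of at least 12 bases that CAL shares with AP1 or with FUL, and overlapping runs are joined. All 5 lie on the minus strand of TAIR10.1 and are written 5′ to 3′ with the gene start following the last base, and the coordinates and letters are from RefSeq. AP1 lies at chr1:25986350-25986649, CAL at chr1:9103645-9103944, FUL at chr5:24506270-24506569, SEP1 at chr5:5154254-5154553 and SEP2 at chr3:467152-467451.
AP1: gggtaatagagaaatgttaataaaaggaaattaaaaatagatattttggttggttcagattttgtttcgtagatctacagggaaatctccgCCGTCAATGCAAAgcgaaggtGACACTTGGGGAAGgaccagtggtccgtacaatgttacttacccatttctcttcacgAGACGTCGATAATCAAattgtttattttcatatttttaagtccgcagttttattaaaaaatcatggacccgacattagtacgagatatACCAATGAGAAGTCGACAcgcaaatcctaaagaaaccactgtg
CAL: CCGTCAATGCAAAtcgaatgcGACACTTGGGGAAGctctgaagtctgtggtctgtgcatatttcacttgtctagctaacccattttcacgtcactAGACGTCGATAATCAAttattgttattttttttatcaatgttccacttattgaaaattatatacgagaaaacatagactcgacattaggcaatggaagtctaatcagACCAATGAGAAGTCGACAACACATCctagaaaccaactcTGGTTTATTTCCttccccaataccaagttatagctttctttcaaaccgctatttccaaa
FUL: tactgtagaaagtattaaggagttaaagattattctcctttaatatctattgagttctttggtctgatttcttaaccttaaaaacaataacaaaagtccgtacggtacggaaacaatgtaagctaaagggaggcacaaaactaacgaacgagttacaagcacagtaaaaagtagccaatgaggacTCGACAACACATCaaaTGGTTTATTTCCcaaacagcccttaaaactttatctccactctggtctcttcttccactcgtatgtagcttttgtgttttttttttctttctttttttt
SEP1: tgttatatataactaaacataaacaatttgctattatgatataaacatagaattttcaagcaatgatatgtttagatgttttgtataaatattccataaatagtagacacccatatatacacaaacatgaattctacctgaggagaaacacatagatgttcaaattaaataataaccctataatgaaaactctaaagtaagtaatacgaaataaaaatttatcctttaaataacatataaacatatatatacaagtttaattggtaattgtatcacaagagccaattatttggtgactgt
SEP2: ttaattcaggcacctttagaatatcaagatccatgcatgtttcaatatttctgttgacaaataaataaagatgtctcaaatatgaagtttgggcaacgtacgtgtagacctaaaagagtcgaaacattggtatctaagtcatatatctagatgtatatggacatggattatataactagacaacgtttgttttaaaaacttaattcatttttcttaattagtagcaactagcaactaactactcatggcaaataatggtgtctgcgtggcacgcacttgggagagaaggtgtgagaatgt
AP1 and CAL shared 4 such runs with 61 bases in all, the longest of 18 bases, in the same order in both. CAL and FUL shared 2 runs with 25 bases, and AP1 and FUL shared 0. SEP1 and SEP2 shared 0 runs of this length. A full CArG box, the usual MADS-box binding sequence, written as CC, 6 bases that are A or T, and GG, was in 0 of the 10 upstream regions, against 2.92% of 27443 regions of the same length genome-wide. The letters CCANTG on either strand, the core of the motif of the floral meristem regulator LEAFY, were in 5 of the 10 regions, against 24.8% genome-wide. Counting overlapping matches on the 2 strands separately, AP1 had 4, CAL 2, SEP4 2, FUL 1 and SEP2 1. These letter matches describe the window and are not binding sites.

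All 10 genes had reads in all 16 libraries and passed the filter on low counts, as did 19312 genes in all. Libraries of replicate 1 held 4.743 to 5.858 M counted reads, and those of replicate 2 held 10.35 to 11.39 M. The genes were low in this tissue: single libraries held 4 to 31 reads for CAL and 12 to 52 for AG, the scarcest, and 71 to 425 for FUL, the most abundant. ZED1 itself was counted in every library, at 3.99 to 16.0 CPM (reads scaled to library size) in zed1-D and 4.13 to 12.1 CPM in WT, and since zed1-D is a dominant allele its level does not check the genotype labels. Genes used here as markers of the 2 tissues were counted throughout. RBCS1A, used for leaf, had 98367 reads or more in each library, and the meristem gene STM had 123 or more. These reads do not measure how much leaf a library held. The stem cell gene CLV3 had reads in 5 of 16 libraries.

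Per length, FUL was the most abundant of the genes and CAL the least. Mean RPKM over the 16 libraries was 21.9 ± 5.92 for FUL, 12.97 ± 3.49 for AP1, 10.2 ± 4.14 for PI, 10.14 ± 3.93 for AP3 and 9.95 ± 2.94 for SEP3 (SD, n = 16). It was 8.25 ± 1.73 for SEP4, 7.93 ± 2.14 for SEP2, 5.60 ± 1.57 for SEP1, 2.55 ± 0.631 for AG and 1.56 ± 0.532 for CAL. FUL was above AP1 in 15 of 16 libraries, SEP2 above SEP1 in 15, and SEP1 above AG and AG above CAL in 16 each. PI was above AP3 in 7 of 16, AP3 above SEP3 in 8 and SEP4 above SEP2 in 7, so neighbours in the middle did not differ beyond their spread. RPKM here is reads per kilobase of the gene length in the deposited tables, scaled to the counted reads of the library.

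**Figure D1:**
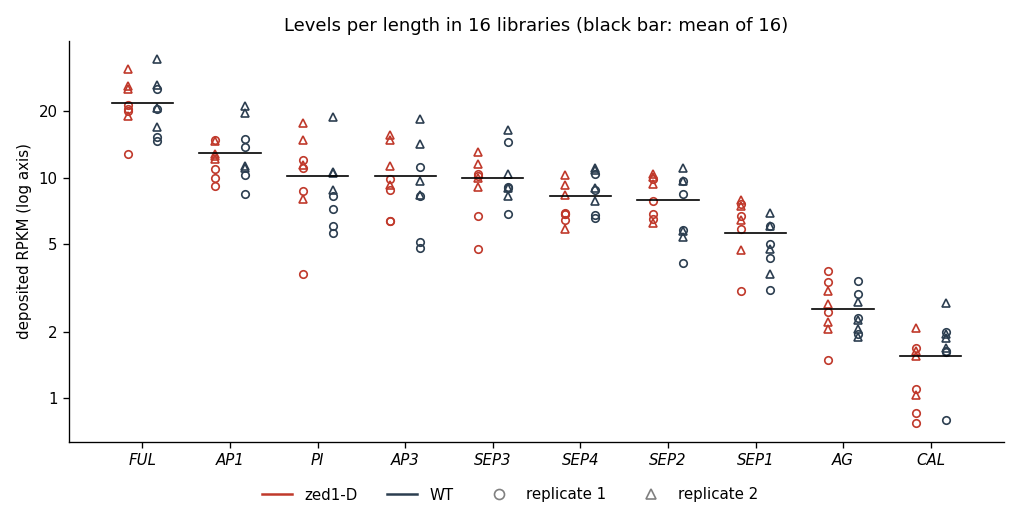
Deposited RPKM (log axis) of the 10 genes in each of the 16 libraries, zed1-D left of WT, with circles for replicate 1, triangles for replicate 2 and a black bar at the mean of 16. FUL (mean 21.9) leads, PI, AP3 and SEP3 overlap in the middle, and AG (2.55) and CAL (1.56) lie apart at the bottom.

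Before the shift, all 10 genes were measured lower in zed1-D than in WT. After the shift, values since 0 h were negative in WT at 3 h and 12 h and mostly positive in zed1-D, and at 12 h 9 of the 10 genes were measured higher in zed1-D. At 0 h the log2 fold changes of zed1-D over WT ran from -0.99 (CAL) to -0.33 (AP1) with a median of -0.55. Over all genes tested the median lay between -0.03 and 0.03 in each of the 14 comparisons. No gene of the 10 passed at an adjusted p under 0.05 (edgeR quasi-likelihood test, Benjamini-Hochberg over 19312 genes), and 0.0466% of all genes did. At an unadjusted p under 0.05 there were 4 of the 10, and DESeq2 called 0. Both zed1-D libraries lay below both WT libraries for 9 of the 10 genes, where 10.7% of all genes did so in that direction. The exception was AP1. All 10 values stayed negative under every alternative run, each of 16 omitted libraries included. With the replicate number as a block, 1 gene was called, FUL, which was lower, and 2.27% of all genes were called in either direction.

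At 12 h the median log2 fold change of the 10 was 0.52, and the 1 negative value was that of SEP4. SEP1 and SEP2 passed as higher in zed1-D, 2 of the 10, while 7.87% of all genes did, and the blocked fit called 6 of the 10 higher (SEP1, SEP2, SEP3, FUL, AP3 and PI) and 19.8% of all genes. For 6 of the 10 (SEP1, SEP2, SEP3, FUL, PI and AG) both zed1-D libraries lay above both WT libraries, as for 23.6% of all genes. At 3 h the values were in between, with 7 positive, 3 negative and a median of 0.23. None passed there, 2 of the 10 had an unadjusted p under 0.05, DESeq2 called 0 and 3.06% of all genes were called by edgeR. The blocked fit called AP3 and SEP2 higher at 3 h, along with 9.07% of all genes.

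At 48 h most of the genes were again measured lower in zed1-D, with 7 negative and 3 positive values and a median of -0.33. AP1 passed as lower, 1 of the 10, as did 6.24% of all genes. The blocked fit called 4 lower (AP1, AP3, SEP3 and SEP4), or 4 of 10 where it called 23.5% of all genes, and for 6 of the 10 both zed1-D libraries lay below both WT libraries, as for 25.7% of all genes. Averaged over the 4 times the genotypes were close, with 5 positive and 5 negative values and a median of 0.01. No gene of the 10 passed on this average, 3 had an unadjusted p under 0.05, DESeq2 called 0 and edgeR called 16.5% of all genes. The blocked fit called SEP1 higher on average (0.26 ± 0.11 without the block, SE, blocked adjusted p = 0.022) and AP1 and SEP4 lower (-0.19 ± 0.11 and -0.27 ± 0.11), where it called 22.9% of all genes higher and 23.7% lower.

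**Figure D2:**
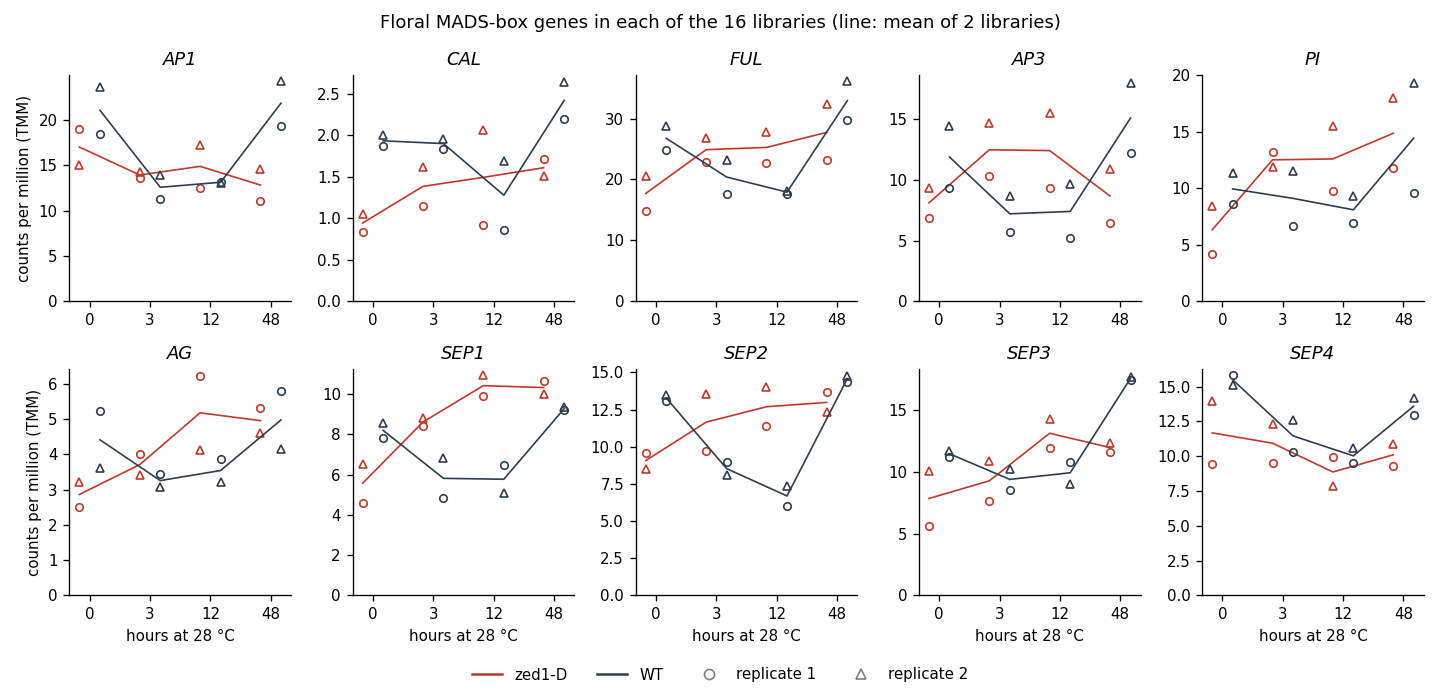
CPM (TMM-scaled) of each gene by hours at 28 °C, zed1-D (red) left of WT (dark), with circles for replicate 1, triangles for replicate 2 and lines through the mean of the 2 libraries. SEP2 lies at 11.4 and 14.0 CPM in zed1-D at 12 h, against 6.04 and 7.35 CPM in WT, which has 14.4 and 14.8 CPM at 48 h.

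Within WT, all 10 genes had negative values at 3 h against 0 h (median log2 fold change -0.42) and at 12 h against 0 h (median -0.56). None passed at 3 h, 2 of the 10 had an unadjusted p under 0.05, DESeq2 called 0 and 1.78% of all genes were called. SEP2 passed at 12 h as lower, as did 0.689% of all genes. With the block, 4 of the 10 were lower at 3 h (AP1, FUL, AP3 and SEP2) and 6 at 12 h (AP1, FUL, AP3, SEP1, SEP2 and SEP4), each time beside 10.9% of all genes. Both later libraries lay below both 0 h libraries for 8 of the 10 genes at 3 h and 7 at 12 h, against 17.1% and 16.2% of all genes. By 48 h in WT, 9 of the 10 values were positive with a median of 0.24. None passed, 1 had an unadjusted p under 0.05, DESeq2 called 0 and 2.97% of all genes were called, while the blocked fit called FUL, PI and SEP3 higher and 14.1% of all genes. The 3 comparisons share the WT libraries of 0 h.

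Within zed1-D, 8 of the 10 genes had positive values at each later time against 0 h, with medians of 0.43 at 3 h, 0.66 at 12 h and 0.60 at 48 h. The 2 negative values each time were those of AP1 and SEP4. At 3 h none passed, 1 had an unadjusted p under 0.05, DESeq2 called 0 and 2.72% of all genes were called, and with the block FUL, AP3, PI and SEP1 were higher, as were 12.8% of all genes. SEP1 passed as higher at 12 h, where 10.4% of all genes did, and at 48 h, where 10.7% did. The blocked fit called 7 higher at 12 h (FUL, AP3, PI, AG, SEP1, SEP2 and SEP3; 24.4% of all genes) and SEP4 lower (19.5% of all genes). At 48 h it called 6 higher (FUL, PI, AG, SEP1, SEP2 and SEP3; 26.5% of all genes). For 7 of the 10 both libraries of 12 h lay above both of 0 h, as for 27.4% of all genes. These comparisons share the zed1-D libraries of 0 h, in which the genes started low.

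**Figure D3:**
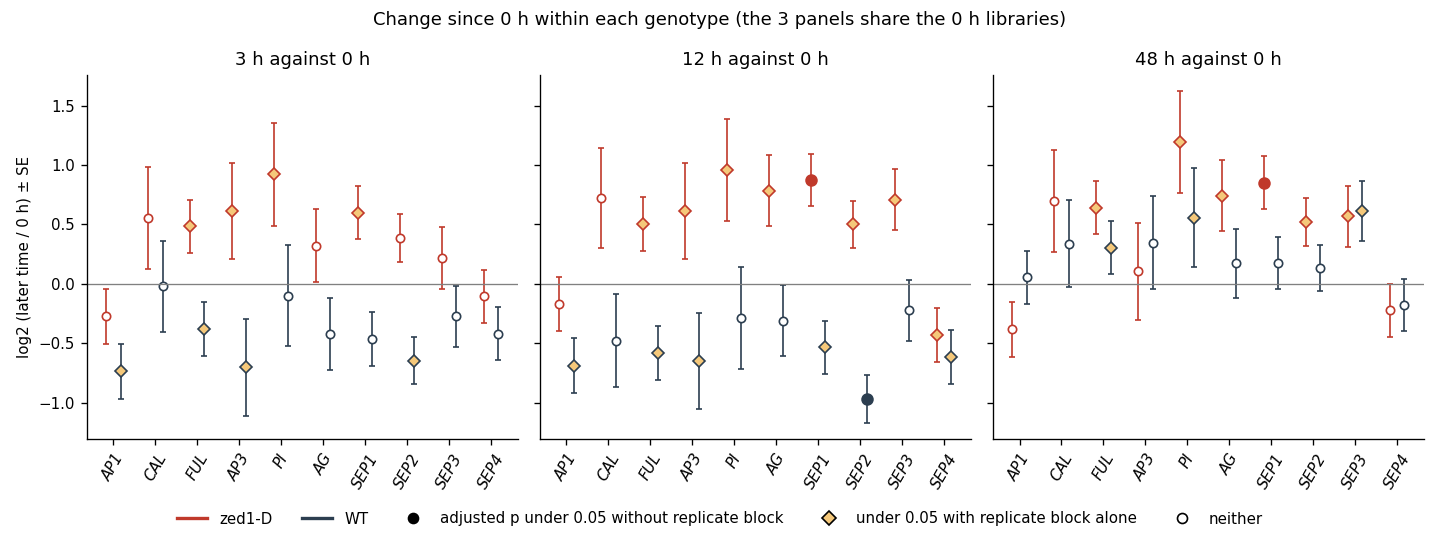
Log2 fold change since 0 h with its SE for each gene at 3, 12 and 48 h, zed1-D (red) left of WT (dark). Filled circles passed at an adjusted p under 0.05 without the replicate block, diamonds passed with the block alone, and the zed1-D points of 8 genes lie above 0 in each panel while all 10 WT points lie below 0 at 3 h and 12 h.

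The difference between these changes was tested as an interaction, the change since 0 h in zed1-D minus that in WT. All 10 values were positive at 3 h (median 0.80) and at 12 h (median 1.15). SEP1 and SEP2 passed at 12 h, 2 of the 10, while 2.98% of all genes passed in that direction. With the block, 4 passed at 3 h (FUL, AP3, SEP1 and SEP2; 4.31% of all genes) and 7 at 12 h (AP1, FUL, AP3, PI, SEP1, SEP2 and SEP3; 12.9% of all genes). Without it none passed at 3 h, 4 had an unadjusted p under 0.05, DESeq2 called 0 and 1.06% of all genes were called. At 48 h 6 values were positive and 4 negative, none passed with or without the block, 0 had an unadjusted p under 0.05, DESeq2 called 0 and 3.69% of all genes were called. The interactions share the 0 h libraries of both genotypes with the comparisons above, so the lower start in zed1-D enters each of them.

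The class E genes SEP1 and SEP2 carried the calls. SEP1 (AT5G15800, chr5:5151334-5154253, minus strand) had 4.60 and 6.53 CPM in zed1-D at 0 h, followed by 8.40 and 8.81 at 3 h, then 9.91 and 10.9 at 12 h, and finally 10.6 and 10.01 after 48 h, with replicate 1 given first here and below. In WT it had 7.83 and 8.56 CPM at 0 h, followed by 4.82 and 6.80 at 3 h, then 6.47 and 5.07 at 12 h, and finally 9.19 and 9.35 after 48 h. Both zed1-D libraries were below both WT libraries at 0 h and above them at 3, 12 and 48 h, and at 12 h the gap was widest.

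At 12 h SEP1 was higher in zed1-D by 0.88 ± 0.22 on the log2 scale (SE, edgeR adjusted p = 0.028). Within replicate 1 the difference was 0.61 and within replicate 2 it was 1.11. At 3 h the value was 0.53 ± 0.22 and did not pass (adjusted p = 0.40), and at 0 h it was -0.53 ± 0.22. SEP1 rose in zed1-D by 0.87 ± 0.22 at 12 h (adjusted p = 0.021) and by 0.85 ± 0.22 at 48 h (adjusted p = 0.020), both against 0 h, and its value at 3 h was 0.60 ± 0.22 (adjusted p = 0.25, blocked adjusted p = 0.041). In WT at 12 h it was -0.54 ± 0.23 against 0 h (adjusted p = 0.37, blocked adjusted p = 0.035). The interaction at 12 h was 1.41 ± 0.32 (adjusted p = 0.036). The SEP1 annotation overlaps AT5G15790 on the opposite strand, and since the strand setting of the counting is not given in the sources used here, reads of the 2 genes cannot be told apart where they overlap.

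Leaving out single libraries ended some of these SEP1 calls. The genotype call at 12 h was lost without either 12 h library of either genotype or without replicate 1 of WT at 48 h, with values of 0.69 to 1.01 and adjusted p up to 0.26. The rise in zed1-D was lost at 12 h without replicate 1 of 0 h or either library of 12 h, and at 48 h without replicate 1 of 0 h or either library of 48 h (adjusted p up to 0.17 and 0.12). The interaction held in 3 of 16 omissions, those of either WT library of 3 h and of zed1-D replicate 2 at 0 h, and its value ran from 1.17 to 1.72 over all 16.

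SEP2 (AT3G02310, chr3:464279-467151, minus strand), the closest relative of SEP1, had 9.61 and 8.54 CPM in zed1-D at 0 h, followed by 9.74 and 13.6 at 3 h, then 11.4 and 14.0 at 12 h, and finally 13.7 and 12.3 after 48 h. In WT it had 13.1 and 13.5 CPM at 0 h, followed by 8.95 and 8.11 at 3 h, then 6.04 and 7.35 at 12 h, and finally 14.4 and 14.8 after 48 h. The WT libraries of 12 h were the lowest of the 16, and they lay below every zed1-D library of any time.

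At 12 h SEP2 was higher in zed1-D by 0.91 ± 0.20 (adjusted p = 0.014), with 0.91 within replicate 1 and 0.93 within replicate 2. In WT it fell by 0.97 ± 0.20 on the log2 scale at 12 h against 0 h (adjusted p = 0.042), and at 3 h its value was -0.65 ± 0.20 (adjusted p = 0.16, blocked adjusted p = 0.0052). In zed1-D the value at 12 h was 0.50 ± 0.20 (adjusted p = 0.13, blocked 0.0079) and at 48 h 0.52 ± 0.20 (adjusted p = 0.092, blocked 0.010). The interaction at 12 h was 1.47 ± 0.28 (adjusted p = 0.017), with 1.35 within replicate 1 and 1.59 within replicate 2. Before the shift SEP2 stood at -0.56 ± 0.20 in zed1-D against WT (unadjusted p = 0.017), and at 3 h at 0.47 ± 0.20 (adjusted p = 0.40, blocked 0.032).

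The SEP2 genotype call at 12 h was lost without either WT library of 12 h or zed1-D replicate 2 of 12 h, with values of 0.72 to 1.08 and adjusted p up to 0.13. The WT fall held in 3 of 16 omissions, those of either zed1-D library of 3 h and of zed1-D replicate 2 at 12 h, while its value stayed between -1.14 and -0.85. The interaction call was lost in 6 of 16 omissions: either library of 0 h of either genotype, WT replicate 1 of 12 h or zed1-D replicate 2 of 12 h, with adjusted p from 0.050 to 0.087.

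SEP3 (AT1G24260, chr1:8593536-8596123), which links the other classes into complexes, ended highest in WT. It had 5.64 and 10.02 CPM in zed1-D at 0 h, followed by 7.64 and 10.9 at 3 h, then 11.9 and 14.3 at 12 h, and finally 11.6 and 12.3 after 48 h. In WT it had 11.2 and 11.7 CPM at 0 h, followed by 8.49 and 10.3 at 3 h, then 10.8 and 9.04 at 12 h, and finally 17.4 and 17.7 after 48 h. At 48 h both zed1-D libraries were below both WT libraries, and at 12 h both were above. The differences were -0.55 ± 0.25 at 48 h (adjusted p = 0.19, blocked 0.0056) and 0.42 ± 0.26 at 12 h (adjusted p = 0.43, blocked 0.028). Since 0 h its value in zed1-D was 0.71 ± 0.26 at 12 h (adjusted p = 0.097, blocked 0.0030) and 0.57 ± 0.26 at 48 h (adjusted p = 0.15, blocked 0.022), and in WT it was 0.61 ± 0.25 at 48 h (adjusted p = 0.26, blocked 0.0044). The interaction at 12 h was 0.93 ± 0.36 (adjusted p = 0.29, blocked 0.0080).

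SEP4 (AT2G03710, chr2:1129229-1131838), which acts in floral meristems as well as organs, had its lowest mean level at 12 h in both genotypes. Its lowest and highest libraries were 7.82 and 13.9 CPM in zed1-D (at 12 h and 0 h) and 9.49 and 15.9 CPM in WT (at 12 h and 0 h). At 12 h against 0 h the value was -0.43 ± 0.23 in zed1-D (adjusted p = 0.26, blocked 0.015) and -0.62 ± 0.22 in WT (adjusted p = 0.27, blocked 0.0079). At 48 h SEP4 had 9.30 and 10.9 CPM in zed1-D and 12.99 and 14.2 CPM in WT, a difference of -0.42 ± 0.22 (adjusted p = 0.26, blocked 0.043).

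AP1 (AT1G69120, chr1:25982294-25986349, minus strand), the class A gene, passed at 48 h. It had 19.0 and 15.0 CPM in zed1-D at 0 h, followed by 13.6 and 14.3 at 3 h, then 12.5 and 17.3 at 12 h, and finally 11.0 and 14.6 after 48 h. In WT it had 18.5 and 23.7 CPM at 0 h, followed by 11.2 and 13.9 at 3 h, then 13.2 and 13.1 at 12 h, and finally 19.4 and 24.3 after 48 h. The groups overlapped at 0 h, 3 h and 12 h, and at 48 h both zed1-D libraries were below both WT libraries.

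AP1 was lower in zed1-D at 48 h by a log2 fold change of -0.76 ± 0.23 (adjusted p = 0.046), with -0.82 within replicate 1 and -0.73 within replicate 2. The call was close to the threshold: it held when either WT library of 0 h or either zed1-D library of 12 h was left out and was lost in the other 12 omissions, with values from -0.99 to -0.58 and adjusted p up to 0.27. In WT, AP1 was at -0.74 ± 0.23 at 3 h against 0 h (adjusted p = 0.17, blocked 0.00058) and -0.69 ± 0.23 at 12 h (adjusted p = 0.22, blocked 0.00057). The interaction at 12 h was 0.52 ± 0.32 (adjusted p = 0.65, blocked 0.034). Of the 36-base stretches in the AP1 exons 1.21% occur elsewhere in the genome, as do 1.75% of those of CAL, and none of those of the other 8 genes do, so a small share of AP1 and CAL reads may not have been unique.

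FUL (AT5G60910, chr5:24502434-24506269, minus strand) had 14.8 and 20.6 CPM in zed1-D at 0 h, followed by 22.9 and 26.9 at 3 h, then 22.7 and 27.8 at 12 h, and finally 23.2 and 32.3 after 48 h. Its WT values were 24.8 and 28.7 CPM at 0 h, followed by 17.7 and 23.1 at 3 h, then 17.7 and 18.2 at 12 h, and finally 29.8 and 36.1 after 48 h. Its zed1-D libraries were both below WT at 0 h and both above WT at 12 h, and the groups overlapped at 3 h and 48 h.

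No FUL value passed without the block, and several did with it. At 0 h zed1-D was at -0.58 ± 0.23 against WT (adjusted p = 1.0, blocked 0.0061) and at 12 h at 0.50 ± 0.23 (adjusted p = 0.25, blocked 0.00089). Since 0 h FUL was at 0.48 ± 0.23, 0.50 ± 0.23 and 0.64 ± 0.23 in zed1-D at 3, 12 and 48 h, with blocked adjusted p of 0.0056, 0.0014 and 3.9e-05. In WT it was at -0.38 ± 0.23, -0.58 ± 0.23 and 0.30 ± 0.22 at the same times, with blocked adjusted p of 0.028, 0.00041 and 0.039. The interaction was 0.86 ± 0.32 at 3 h (blocked adjusted p = 0.0014) and 1.08 ± 0.32 at 12 h (adjusted p = 0.12, blocked 1.2e-05).

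CAL (AT1G26310, chr1:9099994-9103644, minus strand) was the scarcest of the 10, with 0.836 to 2.06 CPM in the zed1-D libraries and 0.863 to 2.64 CPM in the WT libraries. At 0 h it had 0.836 and 1.05 CPM in zed1-D, from 4 and 12 reads, and 1.86 and 2.00 CPM in WT, from 10 and 21 reads. The groups did not overlap there, and the difference of -0.99 ± 0.42 did not pass (unadjusted p = 0.037, blocked adjusted p = 0.29). At 48 h it was at -0.63 ± 0.38 in zed1-D against WT (adjusted p = 0.34), and the interaction at 12 h was 1.20 ± 0.58 (adjusted p = 0.46, blocked 0.15).

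**Figure D4:**
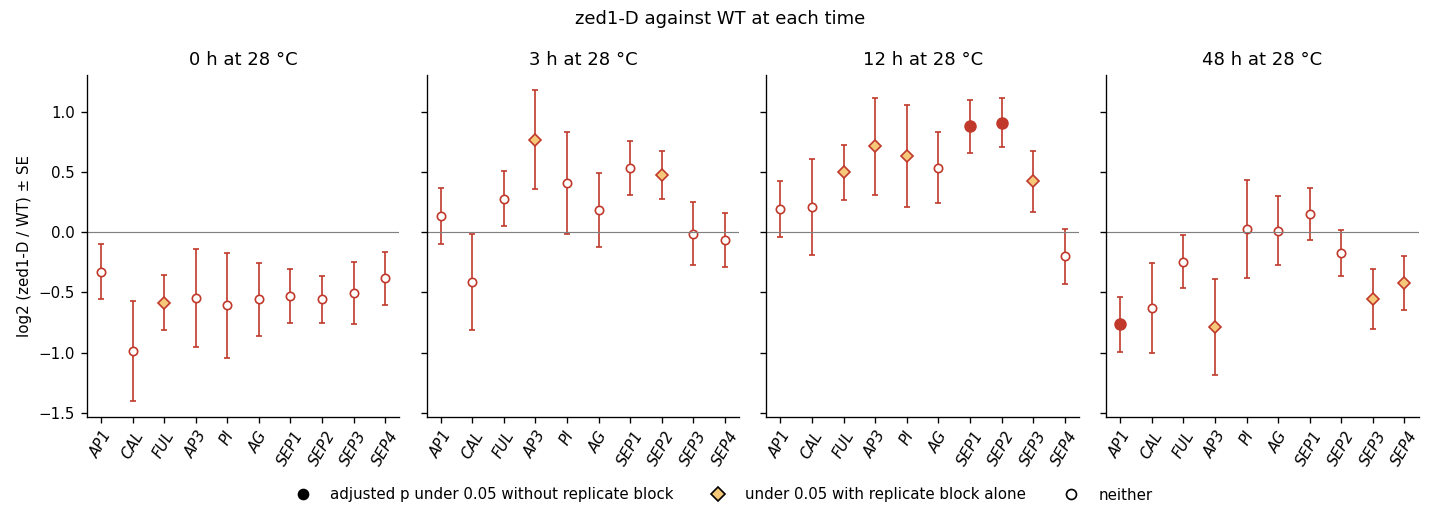
Log2 fold change of zed1-D over WT with its SE for each gene at 0, 3, 12 and 48 h. Filled circles passed at an adjusted p under 0.05 without the replicate block and diamonds passed with the block alone, and all 10 points lie below 0 at 0 h, with SEP1 (0.88) and SEP2 (0.91) filled at 12 h and AP1 (-0.76) filled at 48 h.

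Most of the 10 genes were higher in replicate 2 in most groups, the class B genes by the largest ratios. AP3 (AT3G54340, chr3:20119140-20121314, minus strand) was higher in replicate 2 than in replicate 1 in 8 of 8 groups, as were 22.3% of all genes, and PI (AT5G20240, chr5:6828904-6831515, plus strand) in 7 of 8. The mean CPM of replicate 2 was 1.55 times that of replicate 1 for AP3 and 1.49 times for PI. FUL was also higher in replicate 2 in 8 of 8 groups, at 1.23 times, and CAL and SEP3 were in 7 of 8. AG, the class C gene, went the other way and was higher in replicate 2 in 1 of 8 groups, at 0.808 times the mean of replicate 1.

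AP3 had 6.90 and 9.32 CPM in zed1-D at 0 h, followed by 10.3 and 14.7 at 3 h, then 9.36 and 15.5 at 12 h, and finally 6.45 and 10.9 after 48 h. The WT values were 9.32 and 14.4 CPM at 0 h, followed by 5.74 and 8.67 at 3 h, then 5.18 and 9.63 at 12 h, and finally 12.2 and 18.0 after 48 h. Compared within replicate numbers, both zed1-D libraries were below their WT partners at 0 h and 48 h and above them at 3 h and 12 h.

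No AP3 value passed without the block. With it, AP3 was higher in zed1-D at 3 h (0.77 ± 0.41 without the block, adjusted p = 0.62, blocked 0.00078) and 12 h (0.72 ± 0.40, adjusted p = 0.39, blocked 0.00057) and lower at 48 h (-0.79 ± 0.40, adjusted p = 0.24, blocked 7.8e-05). At 0 h it was at -0.55 ± 0.40 (blocked adjusted p = 0.054). Against 0 h it was at 0.61 ± 0.40 in zed1-D at 3 h and at 12 h (blocked adjusted p of 0.0036 and 0.0012). In WT it was at -0.70 ± 0.41 at 3 h and -0.65 ± 0.41 at 12 h (blocked adjusted p of 0.0018 and 0.0041). The interaction was 1.32 ± 0.58 at 3 h (blocked adjusted p = 9.5e-05) and 1.26 ± 0.57 at 12 h (blocked adjusted p = 6.2e-05).

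PI had 4.18 and 8.45 CPM in zed1-D at 0 h, followed by 13.2 and 11.9 at 3 h, then 9.72 and 15.5 at 12 h, and finally 11.8 and 18.0 after 48 h. WT libraries had 8.58 and 11.3 CPM at 0 h, followed by 6.66 and 11.6 at 3 h, then 6.90 and 9.29 at 12 h, and finally 9.59 and 19.3 after 48 h. The first zed1-D value, 4.18, was the lowest of the 16, and the genotypes overlapped at 48 h. Since 0 h PI was at 0.92 ± 0.43, 0.95 ± 0.43 and 1.19 ± 0.43 in zed1-D at 3, 12 and 48 h, with adjusted p of 0.40, 0.19 and 0.075 and blocked adjusted p of 0.0022, 0.00019 and 4.9e-06. In WT at 48 h it was at 0.55 ± 0.42 (adjusted p = 0.63, blocked 0.011). In zed1-D against WT at 12 h it was at 0.63 ± 0.42 (adjusted p = 0.50, blocked 0.0060), and the interaction at 12 h was 1.24 ± 0.61 (adjusted p = 0.47, blocked 0.0015).

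AG (AT4G18960, chr4:10382856-10388539, plus strand) had 2.51 and 3.22 CPM in zed1-D at 0 h, followed by 4.01 and 3.42 at 3 h, then 6.24 and 4.13 at 12 h, and finally 5.31 and 4.61 after 48 h. The WT libraries held 5.22 and 3.61 CPM at 0 h, followed by 3.44 and 3.08 at 3 h, then 3.88 and 3.21 at 12 h, and finally 5.79 and 4.17 after 48 h. The zed1-D libraries of 0 h were below both WT libraries, and those of 12 h were above both. No AG value passed without the block. Against 0 h, AG in zed1-D was at 0.78 ± 0.30 at 12 h (adjusted p = 0.11, blocked 0.034) and 0.74 ± 0.30 at 48 h (adjusted p = 0.11, blocked 0.029). In zed1-D against WT at 12 h it was at 0.54 ± 0.29 (adjusted p = 0.36, blocked 0.14), and the interaction there was 1.09 ± 0.42 (adjusted p = 0.27, blocked 0.069).

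Across the 16 libraries, after the mean of each replicate number was taken off, 43 of the 45 pairs of these genes had a positive Pearson r of log2 CPM, with a range from -0.06 to 0.85 and a median of 0.55. The closest pair was AG and SEP1 (0.85), and the lowest value was that of PI and SEP4. Among all tested genes the most alike were GH9B15 for PI (r = 0.93), AT3G28790 for AP3, PGA4 for SEP2, GH9A4 for SEP1 (0.92 each), PRK2A for FUL and DD46 for SEP3 (0.91 each). AT4G01910 was nearest to AG (0.90), TRANS11 to SEP4 (0.87), GATA12 to AP1 (0.86) and IAA1 to CAL (0.81). These correlations are descriptions over 16 libraries that share groups, tissue and depth, and carry no p-value. Each neighbour was picked as the highest over all tested genes. With the replicate means left in, GATA12 with AP1 was at 0.37 and AT3G28790 with AP3 at 0.62, while PGA4 with SEP2 stayed at 0.92. Some neighbours were scarce, with mean levels of 0.757 CPM for GH9A4, 0.795 for PRK2A and 1.35 for GH9B15.

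Markers of cell types within the inflorescence varied over the same times. In bulk tissue, fewer cells of a type and less RNA per cell cannot be told apart. The summed level of the 10 MADS-box genes was 77.5 and 96.6 CPM in zed1-D and 116 and 133 CPM in WT at 0 h, 105 and 129 against 80.4 and 87.1 CPM at 12 h, and 105 and 127 against 133 and 161 CPM at 48 h. The 7 pollen markers summed to 22.8 and 26.2 CPM in zed1-D and 31.3 and 34.4 CPM in WT at 0 h, 38.3 and 42.0 against 20.9 and 23.6 CPM at 12 h, and 35.3 and 33.4 against 57.5 and 50.8 CPM at 48 h. The 13 tapetum markers, which mark the nurse tissue of pollen, summed to 66.9 and 52.5 CPM in zed1-D and 96.0 and 78.6 CPM in WT at 0 h, 81.8 and 63.9 against 62.3 and 61.9 CPM at 12 h, and 56.8 and 45.4 against 94.9 and 81.4 CPM at 48 h. Of the pollen sum at 12 h, VGD1 alone held a mean of 15.8 CPM in zed1-D against 3.05 CPM in WT. Among the 6 tested pollen markers 5 had positive values there, and ANX1 was at -0.39. Of the tapetum sum at 12 h, LTP12 alone held a mean of 26.2 CPM in zed1-D against 13.1 CPM in WT. The median log2 fold change of the 9 tested tapetum markers at 12 h was -0.003, with 4 positive. The blocked fit called 1 of them higher there (19.8% of all genes) and 2 lower (15.3%). The 5 shoot meristem markers summed to 56.9 and 50.6 CPM in zed1-D against 64.5 and 57.3 CPM in WT at 12 h. At 48 h they summed to 86.5 and 70.9 CPM in zed1-D and 132 and 111 CPM in WT, and the groups overlapped at 0 h. At 12 h STM held a mean of 19.7 CPM in zed1-D against 27.6 CPM in WT, while KNAT1 held 32.2 against 31.6 CPM. The median log2 fold change of the 3 tested meristem markers at 12 h was 0.03, with 2 positive. The meristem sum was lower in zed1-D in 8 of 8 pairs of the same time and replicate number. So was the sum of 24 regulators of flowering and the floral meristem, while the pollen and tapetum sums were lower in 4 of 8 each. Of the 19 tested regulators 4, 9, 7 and 4 had positive values at 0, 3, 12 and 48 h. Abundant genes weigh most in that sum: at 12 h LUG held 85.2 CPM in zed1-D against 93.1 CPM in WT, and LFY 1.06 against 0.835 CPM. The share of all genes lower in 8 of 8 such pairs is not given here. The 6 leaf markers summed to 32725 to 57722 CPM over the zed1-D libraries and 34647 to 65956 CPM over the WT libraries. The leaf sum was lower in zed1-D in 8 of 8 pairs of the same time and replicate number, with 42587 and 33563 CPM in zed1-D at 12 h against 53205 and 40785 CPM in WT. With the block all 6 leaf markers were lower in zed1-D at 3 h, beside 8.04% of all genes, and at 12 h, beside 15.3%, and at 48 h 3 were lower (23.5% of all genes) and 2 higher (22.1%). Without the block none of the 6 passed at 0, 3, 12 or 48 h (edgeR), with 0 at an unadjusted p under 0.05 and 0 called by DESeq2.

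**Figure D5:**
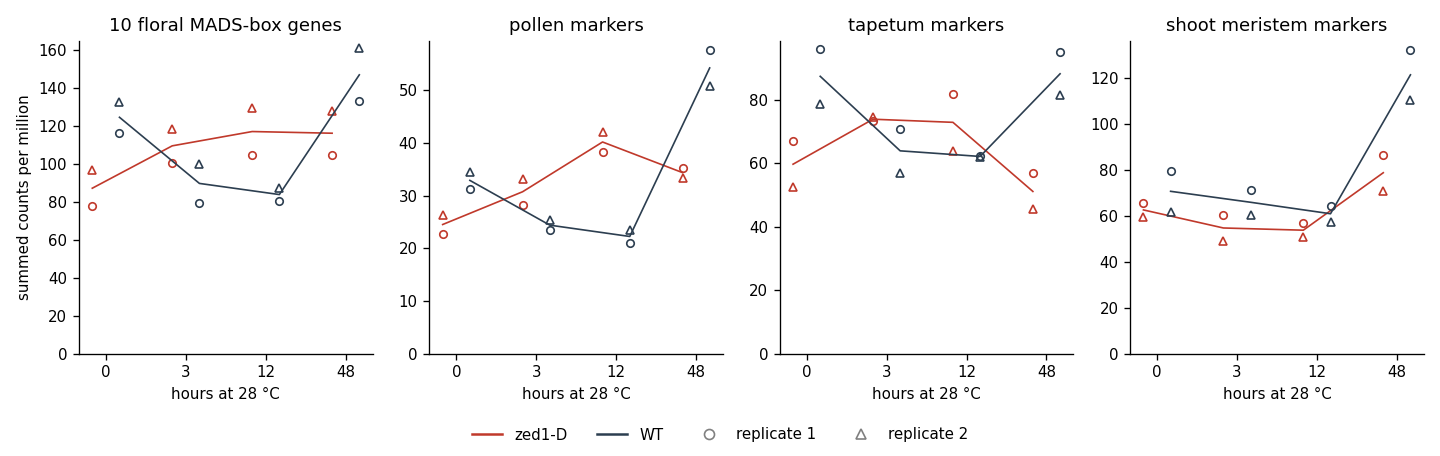
Summed CPM of the 10 floral MADS-box genes and of the pollen, tapetum and shoot meristem markers by hours at 28 °C, zed1-D (red) left of WT (dark), circles for replicate 1, triangles for replicate 2 and lines through the mean. The first 3 panels lie lower in zed1-D at 0 h and 48 h, and all 3 lie higher at 12 h, with 105 and 129 CPM in zed1-D against 80.4 and 87.1 CPM in WT for the MADS-box genes. In the pollen panel at 12 h, VGD1 alone held a mean of 15.8 CPM in zed1-D against 3.05 CPM in WT. In the tapetum panel at 12 h, LTP12 alone held a mean of 26.2 CPM in zed1-D against 13.1 CPM in WT. The shoot meristem sum at 12 h was 56.9 and 50.6 CPM in zed1-D against 64.5 and 57.3 CPM in WT. Within it STM held a mean of 19.7 against 27.6 CPM and KNAT1 32.2 against 31.6 CPM.

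Of the tested pollen markers 2 of 6 were higher in zed1-D at 12 h, VGD1 (2.38 ± 0.22, adjusted p = 5.0e-05) and VGDH1 (2.19 ± 0.56, adjusted p = 0.030), neighbouring pectin methylesterase genes of similar sequence for which reads that match both would not have been counted as unique. Among all genes 7.87% were higher at 12 h. The median over the 6 was 0.99 at 12 h and -0.53 at 48 h, where VGD1 was lower (-0.77 ± 0.20). Of the tested tapetum markers 5 of 9 were lower in zed1-D at 48 h, beside 6.24% of all genes, and 8 of 9 with the block, beside 23.5%. Among the 5 were AMS, a regulator of tapetum development (-1.31 ± 0.34, adjusted p = 0.027), and MS2, which makes fatty alcohols for the pollen wall (-1.26 ± 0.27, adjusted p = 0.0099), with a list median of -1.26. CYP704B1 (-1.68 ± 0.41), PKSA (-0.85 ± 0.22) and PKSB (-1.35 ± 0.30), enzymes of the same wall pathway, were the other 3. Each of the 5 calls held in 12 to 14 of 16 omissions of a library. CYP704B1 was at -0.83 without WT replicate 2 of 48 h, and PKSB at -0.87 without zed1-D replicate 2 of 48 h. Of 3 tested meristem markers KNAT1, a homeobox gene that maintains the meristem, was lower at 48 h (-0.57 ± 0.13, adjusted p = 0.012), beside 6.24% of all genes. The KNAT1 call held in 13 of 16 omissions. With the block STM was lower in zed1-D at 3 h (-0.52 ± 0.31 without the block, adjusted p = 0.71, blocked 0.00087), beside 8.04% of all genes. At 12 h it was lower with the block too (-0.49 ± 0.31, adjusted p = 0.45, blocked 0.00087), beside 15.3%. ANX2 had reads in 10 of 16 libraries, DYT1 in 5 and CLV3 in 5. The part of these cell types in the MADS-box results was not tested.

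FLC was the regulator of flowering that passed at 3 h, 12 h and 48 h. Of 24 regulators of flowering and the floral meristem 19 were tested, and in zed1-D against WT 1 passed at 3 h, 1 at 12 h and 3 at 48 h, all lower, with medians of -0.05, -0.11 and -0.29, while 0.233%, 1.82% and 6.24% of all genes were lower. The blocked fit called 3 lower at 3 h, 3 lower and 1 higher at 12 h (SOC1, an activator of flowering, 0.56 ± 0.45 without the block, adjusted p = 0.61, blocked 1.8e-05) and 9 lower at 48 h, beside 8.04%, 15.3% and 23.5% of all genes lower. At 0 h 0 passed, with 1 at an unadjusted p under 0.05, 0 called by DESeq2 and a median of -0.11. FLC, the MADS-box repressor of flowering, was lower at 3 h (-1.34 ± 0.32, adjusted p = 0.048), 12 h (-1.53 ± 0.32, adjusted p = 0.010) and 48 h (-1.13 ± 0.32, adjusted p = 0.037), of which the 3 h call held in 2 of 16 omissions of a library, the 12 h call in 14 (-0.99 without WT replicate 2 of 12 h) and the 48 h call in 9. At 0 h its value was 0.20 ± 0.33. Mean FLC was 3.76, 8.36, 7.27 and 7.08 CPM in WT at 0, 3, 12 and 48 h, and 4.25, 3.19, 2.51 and 3.21 CPM in zed1-D. At 3 h against 0 h it was at 1.12 ± 0.32 in WT (adjusted p = 0.12, blocked 0.0036) and -0.42 ± 0.33 in zed1-D (adjusted p = 0.73, blocked 0.33). At 48 h TFL1, which keeps the inflorescence meristem from turning into a flower (-2.08 ± 0.42, adjusted p = 0.0066), and SPL9, an age-dependent activator of flowering (-1.44 ± 0.26, adjusted p = 0.0034), were also lower in zed1-D than in WT. LFY, which activates AP1, AP3 and AG, had 3 to 16 reads a library and did not pass in any of these comparisons. In zed1-D at 48 h against 0 h, 4 of the 19 fell, TFL1 (-1.68 ± 0.43), FLM (-0.74 ± 0.16), PAN (-1.09 ± 0.33) and CLF (-0.998 ± 0.21), and PNY rose (0.82 ± 0.19, adjusted p = 0.011), while 9.34% of all genes fell and 10.7% rose. Without zed1-D replicate 2 of 48 h TFL1 was at -1.12 and PAN at -0.63, neither passing. The PAN call held in 7 of 16 omissions and DESeq2 did not make it.

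Of 8 other MADS-box genes of flower, ovule and seed 4 were tested (SHP1, SHP2, STK and AGL6), and none passed between the genotypes at 0, 3, 12 or 48 h (edgeR), with 1 at an unadjusted p under 0.05 at 12 h and 1 at 48 h and 0 called by DESeq2. Their medians were -0.37, 0.44, 0.88 and -0.36 at the 4 times. The blocked fit called 2 of the 4 higher at 12 h, beside 19.8% of all genes, and 1 of the 4 lower at 48 h, beside 23.5%. Of a list of 13 genes that act in floral organs 7 were tested. NAP, a senescence regulator and a target of AP3 and PI, was higher in zed1-D at 12 h (2.05 ± 0.39, adjusted p = 0.0054) and 48 h (2.01 ± 0.45, adjusted p = 0.012). GNC, a GATA factor that AP3 and PI repress, was lower at 12 h (-0.59 ± 0.13, adjusted p = 0.011) and higher at 48 h (0.67 ± 0.13, adjusted p = 0.0045). ANT, which promotes organ growth, was lower at 48 h (-0.77 ± 0.18, adjusted p = 0.015). So 1 of the 7 was higher and 1 lower at 12 h, where 7.87% and 1.82% of all genes were, and 2 were higher and 1 lower at 48 h, where 8.32% and 6.24% were. The list medians were 0.21, 0.30, 0.36 and -0.45 at the 4 times.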

How the data were processed

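The aligner, the counter, its annotation and whether it used strand were not given in the sources used here; the build is TAIR10, per the submitters' processing notes. Each deposited table lists, per gene with at least 1 read, the authors' count of uniquely mapped reads per the file headers and the authors' RPKM value, which the counts, lengths and totals gave back to within a relative difference of 5.9e-08. Genes missing from a table were taken as 0. Counts were fitted with edgeR 4.0.16 in R 4.3.3 (TMM, filterByExpr, quasi-likelihood test, 1 mean for each of 8 groups over 16 libraries, 8 residual degrees of freedom). P-values were adjusted by Benjamini-Hochberg over 19312 genes within each of 14 contrasts, and the threshold was 0.05. Printed CPM were scaled by TMM, and log2 CPM for correlations used a prior count of 2. The fit was tested on simulated data.

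Libraries with the same replicate number in the title were alike. Their deviations from their group means correlated at 0.527 to 0.708 (median 0.655) over 28 pairs of groups. The titles do not say what the numbers stand for. Every replicate 2 library was also deeper, so depth and any shared handling cannot be told apart. The blocked fit, with the replicate number as a term, left 7 residual degrees of freedom and a common biological coefficient of variation of 5.67%, against 22.6% without it. Alternatives were the block, DESeq2 1.42.0, RLE size factors, no filter, only the compared groups, and each library left out. Named genes were the 10 members, list genes that passed in a genotype comparison or an interaction, up to 4 per list in time comparisons, ZED1 and the most alike genes, and not all of these are printed. The members and the 7 lists of 76 genes were chosen with earlier results of these data known. Upstream sequences are from RefSeq's TAIR10.1, and the deposited tables hold no coordinates. The precision of a value is set by its counts, which are given for the scarce genes.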

Additional observations from a re-analysis of the deposited data

Results flagged for a closer look

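The change since 0 h differed between the genotypes at 12 h for 2 of the 10 genes by a test of that difference. For SEP2 the log2 change in zed1-D minus that in WT was 1.47, and for SEP1 it was 1.41. Both rest on the lower zed1-D libraries of 0 h as well as on the lower WT libraries of 12 h.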

How the results depend on the processing

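With the replicate number as a block the libraries are compared within pairs, and the block moved the number of the 10 genes called to 1 at 0 h, 2 at 3 h, 6 at 12 h, 4 at 48 h and 3 on average over time for zed1-D against WT. It moved it to 4, 6 and 3 for WT at 3, 12 and 48 h against 0 h, to 4, 8 and 6 for zed1-D at the same times, and to 4 and 7 for the interactions at 3 h and 12 h. The calls made without the block were kept with it. Without the filter on low counts 1 gene was called at 12 h, 0 at 48 h, 0 in WT at 12 h and 1 in the interaction at 12 h. With only the compared groups in the fit 0 were called in all of the comparisons that had a call, where fewer libraries leave fewer residual degrees of freedom. DESeq2 and RLE size factors gave the same counts throughout.

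Leaving out 1 library at a time, with a lone library taken to vary like the others, gave 0 to 2 calls at 12 h, 0 to 1 at 48 h, 0 to 1 in WT at 12 h, 0 to 2 in zed1-D at 12 h and at 48 h, 0 to 2 in the interaction at 12 h and 0 to 1 on average over time. The PI change in WT at 48 h ran from -0.067 to 0.93 and turned negative without WT replicate 2 of 48 h. The other named gene values kept their sign under every alternative. Of 24 calls of list genes, whose alternatives were chosen after seeing the data, 3 held in all 16 omissions and 0 changed direction. With only the compared groups in the fit, most of the 24 ended. Those that held were VGD1 and NAP at 12 h and NAP, TFL1 and SPL9 at 48 h in zed1-D against WT, and CLF in zed1-D at 48 h against 0 h. Without the filter on low counts, PKSA at 48 h, FLC at 3 h and 48 h, and PAN ended. CAL and AG rest on 4 to 52 reads a library.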
